A study of Mus musculus with 12 samples.

Results

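The 10 genes described here encode the route by which the liver breaks down the amino acid tryptophan through kynurenine and turns part of it into nicotinamide adenine dinucleotide (NAD). They are Tdo2, Ido2, Afmid, Kmo, Kynu, Haao, Acmsd, Aldh8a1, Qprt and Nadsyn1, listed by name from 55487 gene identifiers, with earlier results of these libraries known. Since those results were in view, the genes count as chosen by measured values, namely their library-scaled counts in the 4 groups, besides their place in the route. All 10 were among the 13535 genes with enough reads to be tested. The values and edgeR p-values below therefore describe where each gene lies in the fit over all genes, and are no independent support for the choice.

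The samples were primary mouse hepatocytes, the parenchymal cells of the liver, kept in culture and sequenced as 4 groups of 3 libraries. Control cells were left untreated. The FAC group was given only FAC, which the labels leave as an abbreviation. The title of the study concerns ferroptosis, a form of cell death through iron-dependent lipid peroxidation. The Lip-1+FAC group was given liproxstatin-1, which the labels describe as scavenging lipid reactive oxygen species (ROS). It was added on culture day 2, before FAC. The MT+FAC group was given Mito-TEMPO, described as scavenging mitochondrial ROS, on the same day, also before FAC. No group had a scavenger without FAC, so a scavenger's own change and its change of the FAC response cannot be told apart. Strain, sex, age, dose and duration of the FAC exposure were not given in the sources used here. The labels do not say whether replicates came from separate animals or cultures, so p-values measure only the spread between these samples, which may be technical.

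In the kynurenine route, a heme dioxygenase opens the indole ring of tryptophan to give N-formylkynurenine. A formamidase releases kynurenine, which is hydroxylated and cleaved to 3-hydroxyanthranilate. The next dioxygenase makes an unstable semialdehyde at which the route branches. Decarboxylation and oxidation send the carbon towards acetyl-CoA, whereas spontaneous ring closure gives quinolinate, the precursor of NAD made de novo. The liver expresses the complete route and is its main site in the body.

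Of the 12 libraries 11 held 22991598 to 31683376 reads assigned to genes. FAC replicate 2 held 52529278, and its file is marked as combined without saying what was combined. Summed over 8 hepatocyte markers, expression was 16944 to 17473 CPM (the count scaled to a common library size) in control, 16446 to 17059.7 with FAC alone, 12779 to 13877 in the Lip-1+FAC libraries and 13229 to 14538 in those of MT+FAC. Most of this sum was Alb. Against FAC, 6 of these 8 markers were called lower with either scavenger and 1, the urea cycle gene Cps1, was called higher (0.54 with Lip-1 and 0.57 with Mito-TEMPO on the log2 scale), while Hnf4a was not called (-0.07 and 0.03). With FAC against control 1 of the 8 was called higher, Cyp2e1 at 0.42, and 1 lower, Cps1 at -1.25, with a median of 0.037. The sum of 8 macrophage markers was 227 to 259.8 CPM in control, 292 to 325 with FAC alone, 121 to 150.8 in the Lip-1+FAC libraries and 146.2 to 179 in those of MT+FAC, and most of it was Cd68, called higher with FAC (0.39) and lower with each scavenger than with FAC alone (-1.25 and -1.03). The Kupffer cell genes Clec4f, Vsig4 and Cd5l lay at 0.365 to 1.495, 0.395 to 1.09 and 0.0427 to 1.09 CPM. Clec4f was called lower with FAC (-1.08) and higher with Mito-TEMPO than with FAC alone (1.16), and Lyz2 was called higher with both scavengers (0.63 and 0.61). Cd5l had the opposite signs to Clec4f (1.02 and -0.67), with no overlap of libraries, but was not called. The fold changes of the 8 macrophage markers were positive for 6 and negative for 2 with FAC. Against FAC they were positive for 5 and negative for 3 with Lip-1, and 4 and 4 with Mito-TEMPO. The 6 endothelial markers summed to 32.8 to 35.04 CPM in control and FAC libraries and to 24.3 to 29.1 in pretreated ones, with Stab2 called lower with each scavenger than with FAC alone (-0.57 and -0.46). The 6 stellate cell markers summed to 9.27 to 14.3 CPM in control, 18.9 to 19.6 with FAC and 7.90 to 9.81 in pretreated libraries. In FAC libraries most of this was Reln, called higher with FAC (1.11) and lower with the scavengers than with FAC alone (-1.83 and -1.61). The other 3 tested stellate markers had the opposite signs in these comparisons, with Dcn called lower with FAC (-0.60) and none of the 3 called with the scavengers. The 4 lymphocyte markers summed to at most 0.432 CPM, with Cd3e and Nkg7 at 0 in all libraries. The 5 cholangiocyte markers summed to 58.6 to 68.9 CPM in control, 98.4 to 123 with FAC alone, 109.6 to 125 in the Lip-1+FAC libraries and 104 to 145 in those of MT+FAC. Of these 5, 4 were called higher with FAC than in control, and 4 were called lower and 1, Spp1, higher with each scavenger than with FAC alone. In bulk RNA, fewer cells of a type and less RNA per cell cannot be told apart, and the part of these shifts in the results below was not tested.

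FAC-treated hepatocytes held less RNA of 7 of the 10 genes than control cells, and none was called higher. The largest fall was that of Aldh8a1 on the oxidative side of the branch, to 17.1% ± 0.396 of the control mean (SD, n = 3), followed by Kynu, to 36.2% ± 5.45. Acmsd, Haao and Afmid were not called. In the same comparison 36.6% of all genes tested were called, with 17.5% of all genes higher and 19.1% lower. The median log2 fold change was -0.69 over the 10 genes and -0.0061 over all genes. The libraries of control and FAC did not overlap for 7 of the 10, where 46.2% of all genes tested had no overlap. Without FAC replicate 2, the library marked as combined, 7 of the 10 were called as well.

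Pretreatment with either scavenger left 7 of these genes higher than in FAC alone and 1 lower, the lower gene being Acmsd in both. Of all genes tested, 39.9% were called in Lip-1+FAC against FAC, with 20.7% of all genes higher and 19.2% lower. In MT+FAC against FAC 40.9% were called, with 21.2% higher and 19.7% lower. Libraries did not overlap for 8 of the 10 genes in either comparison, where 50.8% of all genes tested had no overlap with Lip-1 and 52.9% with Mito-TEMPO. The median over the 10 genes was 0.55 with Lip-1 and 0.60 with Mito-TEMPO, beside medians over all genes of 0.00062 and -0.0011. These 2 comparisons and the first share the FAC libraries, so their opposite signs are given side by side and not counted as agreement. The summed level of the 10 genes was 451 ± 11.9 CPM in control, 268 ± 4.65 with FAC alone, 408 ± 4.97 in the Lip-1+FAC libraries and 403 ± 13.7 in those of MT+FAC (SD, n = 3 each).

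**Figure D1:**
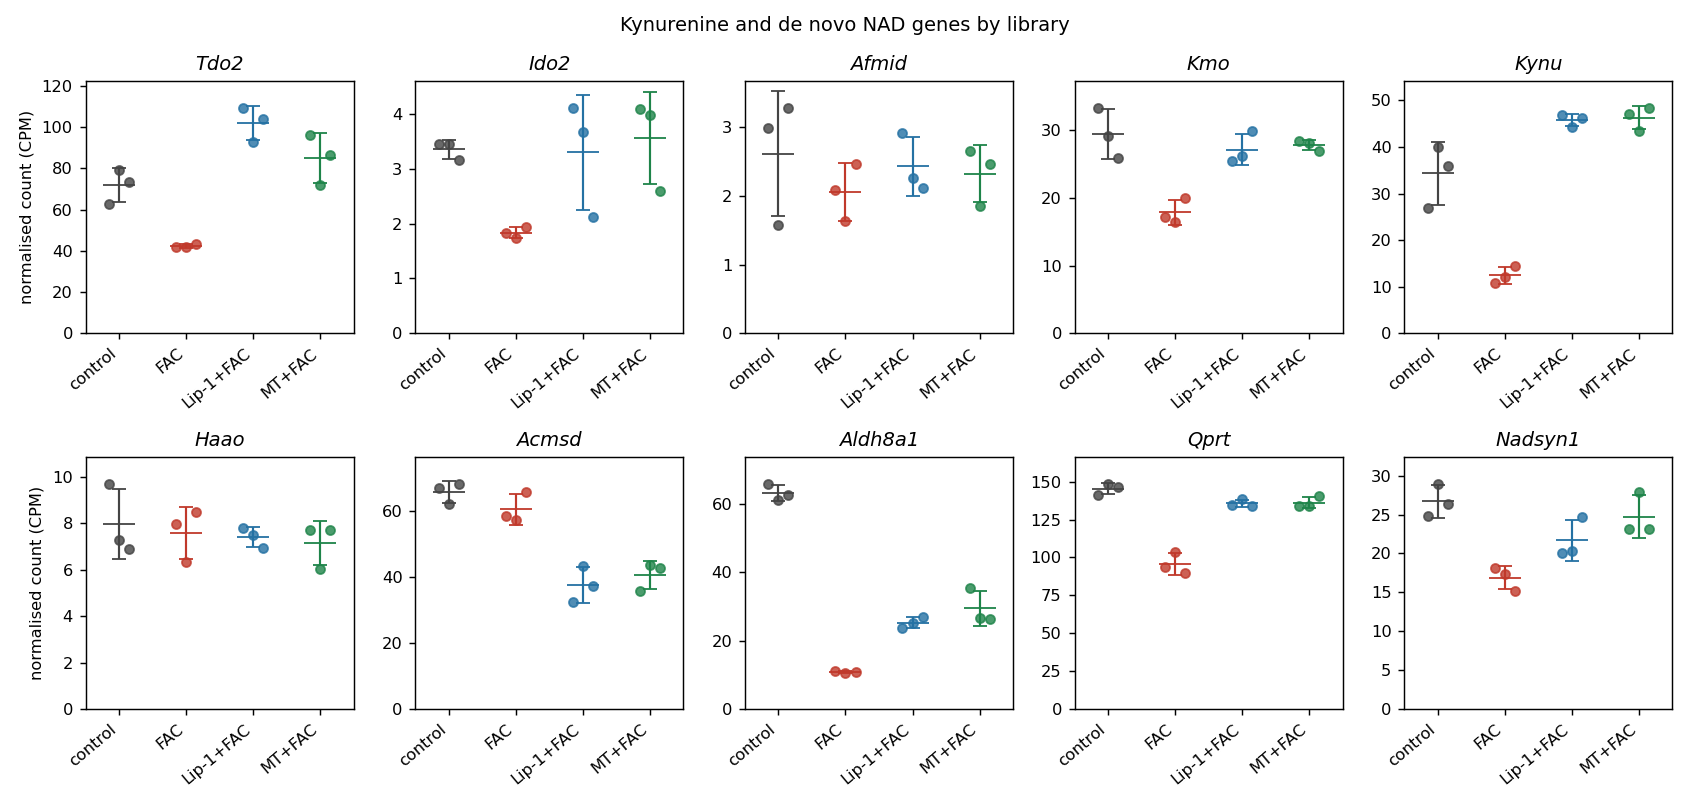
CPM of each of the 10 genes in each of the 12 libraries, 1 panel per gene with its own axis from 0; points are libraries, and lines with bars are group means with their SD. Aldh8a1 lies at 10.5 to 11.03 CPM in the FAC libraries and at 61.03 to 65.8 in control, and Acmsd is lowest in the Lip-1+FAC and MT+FAC libraries.

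**Figure D2:**
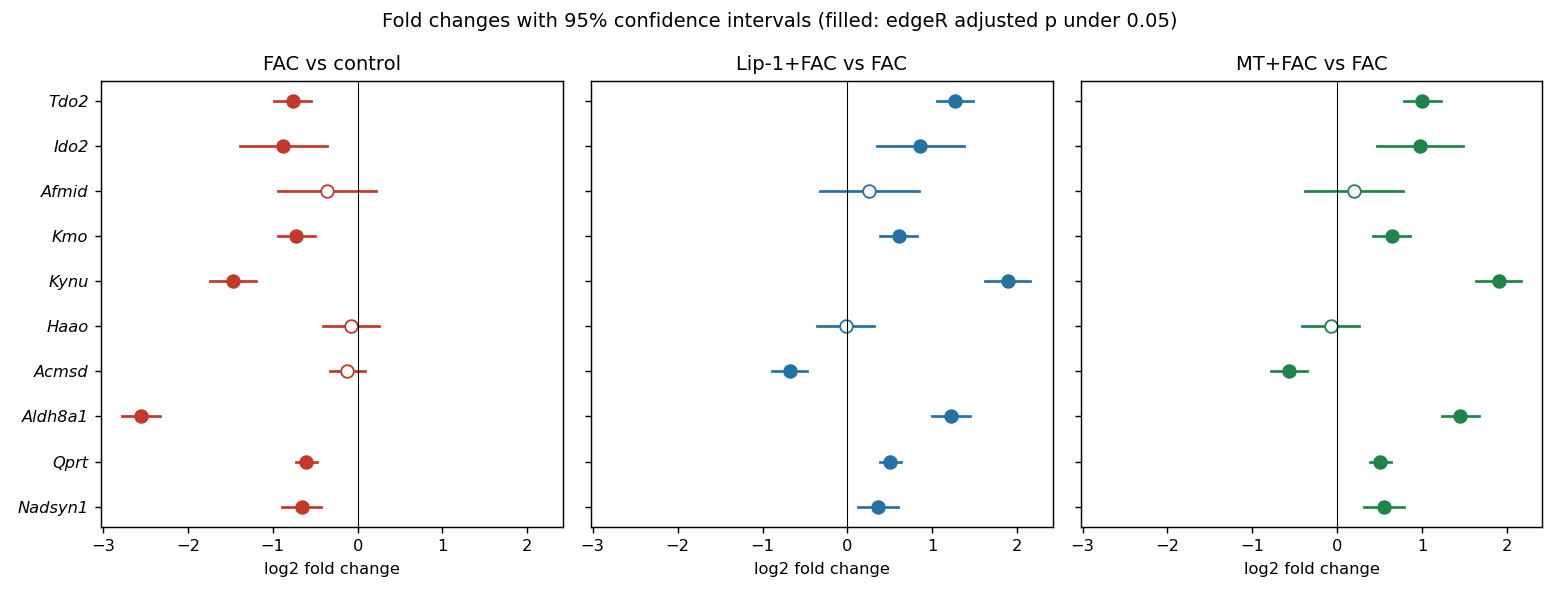
Log2 fold changes of the 10 genes in the comparisons fitted with edgeR, with 95% confidence intervals, in 3 panels; filled points were called and 0 means no difference. With FAC the values run from -2.55 for Aldh8a1 to -0.08 for Haao, and against FAC alone Acmsd lies at -0.68 with Lip-1 and -0.57 with Mito-TEMPO.

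Tdo2 (tryptophan 2,3-dioxygenase, ENSMUSG00000028011, GRCm38 chr3:81957090-81976202, minus strand) is the main hepatic enzyme that commits tryptophan to the route. Its level was 62.8, 79.3 and 73.7 CPM in the control libraries and 41.9, 41.7 and 43.5 in FAC. With Lip-1 before FAC it was 109, 92.8 and 104 CPM, and with Mito-TEMPO 96.4, 72.1 and 86.4. The 3 Lip-1+FAC libraries lay above all control libraries, the MT+FAC libraries overlapped with both of these groups, and the FAC libraries lay below all others. The log2 fold change was -0.76 in FAC against control (SE 0.102; adjusted p = 2.48e-05, edgeR). Against FAC alone it was 1.27 with Lip-1 (SE 0.102; adjusted p = 1.08e-07, edgeR) and 1.00 with Mito-TEMPO (SE 0.102; adjusted p = 1.49e-06, edgeR).

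Ido2 (indoleamine 2,3-dioxygenase 2, ENSMUSG00000031549, chr8:24531892-24576333, minus strand) is a related dioxygenase with a weaker activity towards tryptophan. It was much scarcer, with 48 to 131 counts per library, so its values carry more counting error. Control libraries held 3.46, 3.45 and 3.16 CPM and FAC libraries 1.83, 1.74 and 1.94, a log2 fold change of -0.87 (SE 0.244; adjusted p = 0.00889, edgeR). Lip-1+FAC libraries held 4.11, 3.68 and 2.11 CPM and MT+FAC libraries 4.09, 3.99 and 2.59. In both pretreated groups replicate 3 was the lowest, below all control libraries but still above all FAC libraries. The log2 fold change against FAC was 0.86 with Lip-1 (edgeR adjusted p = 0.00908) and 0.97 with Mito-TEMPO (edgeR adjusted p = 0.00374). Without Lip-1+FAC replicate 1 the first of these became 0.68 (edgeR adjusted p = 0.0574).

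Afmid, the arylformamidase that hydrolyses N-formylkynurenine (ENSMUSG00000017718, chr11:117825924-117839908, plus strand), had 42 to 85 counts per library. Its level was 2.99, 1.58 and 3.28 CPM in control, 2.08, 1.63 and 2.46 with FAC alone, 2.91, 2.25 and 2.11 in the Lip-1+FAC libraries and 2.66, 1.85 and 2.46 in those of MT+FAC. All 4 groups overlapped, and FAC against control was -0.36 on the log2 scale with a 95% interval from -0.94 to 0.22. Of its exon bases 46.6% lie under exons of Gm20708 or Tk1, so its count is uncertain, since reads over shared exons are not assigned in this kind of unstranded count.

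Kmo, the kynurenine 3-monooxygenase of the outer mitochondrial membrane (ENSMUSG00000039783, chr1:175620381-175662116, plus strand), was at 33.3, 29.1 and 25.9 CPM in control and 17.2, 16.5 and 20.03 in FAC. Its log2 fold change was -0.72 (SE 0.104; adjusted p = 3.28e-05, edgeR). The pretreated libraries, at 25.5, 26.2 and 29.9 CPM with Lip-1 and 28.4, 28.1 and 27.03 with Mito-TEMPO, lay above all FAC libraries and overlapped with control. Against FAC alone Kmo was higher by 0.60 with Lip-1 (SE 0.104; adjusted p = 0.000165, edgeR) and by 0.64 with Mito-TEMPO (SE 0.104; adjusted p = 1e-04, edgeR) on the log2 scale.

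Kynu, the kynureninase that cleaves 3-hydroxykynurenine to 3-hydroxyanthranilate (ENSMUSG00000026866, chr2:43555329-43682715, plus strand), varied most among the middle steps. Control libraries held 26.9, 40.06 and 35.99 CPM and FAC libraries 10.7, 12.1 and 14.4, a log2 fold change of -1.47 (SE 0.128; adjusted p = 2.38e-07, edgeR). Lip-1+FAC libraries held 46.97, 44.3 and 46.1 CPM and MT+FAC libraries 47.04, 43.5 and 48.4. Both pretreated groups lay above every control library and every FAC library. Kynu was 3.7-fold higher than in FAC alone with Lip-1 (edgeR adjusted p = 1.59e-08) and 3.74-fold higher with Mito-TEMPO (edgeR adjusted p = 2.47e-08). The ratio of Kmo to Kynu counts was 0.895 ± 0.297 in control, 1.45 ± 0.137 with FAC alone, 0.593 ± 0.0525 in the Lip-1+FAC libraries and 0.603 ± 0.044 in those of MT+FAC.

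Haao, the 3-hydroxyanthranilate 3,4-dioxygenase, which uses ferrous iron to make the branch-point semialdehyde (ENSMUSG00000000673, chr17:83831156-83847963, minus strand), did not pass the test in any of the 6 comparisons. Its level was 9.70, 7.28 and 6.91 CPM in control, 7.96, 6.32 and 8.48 with FAC alone, 7.79, 7.51 and 6.94 in the Lip-1+FAC libraries and 7.72, 6.04 and 7.69 in those of MT+FAC. All groups overlapped. The 95% interval of the log2 fold change in FAC against control was -0.41 to 0.26.

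At the branch, Acmsd and Aldh8a1 catalyse successive steps of the oxidative arm, and Qprt and Nadsyn1 belong to the arm that ends in NAD. The 250 bases before the annotated start are shown for Aldh8a1, the gene with the largest fall, and for the last enzyme of the NAD arm, with CpG dinucleotides in capitals. The sequences are from RefSeq, build GRCm38.p6, written 5' to 3' on the gene's strand, at chr10:21377050-21377299 (plus) for Aldh8a1 and chr7:143822853-143823102 (minus) for Nadsyn1.
Aldh8a1: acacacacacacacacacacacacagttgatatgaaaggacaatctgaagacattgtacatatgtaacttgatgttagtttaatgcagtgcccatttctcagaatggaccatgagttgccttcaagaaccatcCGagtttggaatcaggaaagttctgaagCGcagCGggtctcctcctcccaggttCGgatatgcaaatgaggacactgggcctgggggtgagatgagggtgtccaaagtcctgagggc
Nadsyn1: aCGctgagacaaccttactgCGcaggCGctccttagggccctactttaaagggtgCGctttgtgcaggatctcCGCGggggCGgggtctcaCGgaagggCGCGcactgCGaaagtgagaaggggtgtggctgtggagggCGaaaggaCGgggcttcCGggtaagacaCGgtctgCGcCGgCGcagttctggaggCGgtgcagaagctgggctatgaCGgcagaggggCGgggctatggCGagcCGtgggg
The Aldh8a1 window held 4 CpG, with an observed-to-expected CpG ratio of 0.279, below the median of 0.373 over 32817 mouse promoters of the same table. The Nadsyn1 window held 23 CpG, with a ratio of 0.927. The last 9 bases of the Aldh8a1 window lie in an annotated exon of Aldh8a1. RefSeq promoter entries were found for 8 of the 10 genes, all but Ido2 and Kynu. Both strands were searched for CAAAGTCCA (HNF4), TTGCNNAA (C/EBP), TGACNNNGC (antioxidant response element), TGANTCA (AP-1), TGTTCT (glucocorticoid receptor) and GCGTG (xenobiotic response element core). These occur in 0.384%, 9.57%, 10.2%, 6.75%, 16.1% and 28.1% of all promoter windows, respectively. None of them was in the windows shown, which says only that these letters are absent there. Among the other entries, GCGTG was found for Tdo2 and Haao, TGTTCT for Haao and TGACNNNGC for Qprt, each match being a description only. The windows of Tdo2 and Haao lie wholly, and 197 of the 250 bases of that of Qprt, within annotated exons of these genes.

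Acmsd, the decarboxylase that draws the semialdehyde away from quinolinate (ENSMUSG00000026348, chr1:127729413-127767978, plus strand), was the exception among the abundant genes of the route. Its level was 67.2, 62.2 and 68.4 CPM in control and 58.6, 57.4 and 65.97 in FAC, so that these groups overlapped. The log2 fold change was -0.12 (SE 0.0979; adjusted p = 0.356, edgeR), with a 95% interval of -0.33 to 0.084. Lip-1+FAC libraries held 32.5, 43.4 and 37.5 CPM and MT+FAC libraries 35.9, 43.6 and 42.96, all below every control and every FAC library. Acmsd was 1.6-fold lower than in FAC alone with Lip-1 (log2 fold change -0.68, SE 0.0996, edgeR adjusted p = 3.62e-05). With Mito-TEMPO it was 1.48-fold lower (log2 fold change -0.57, SE 0.099, edgeR adjusted p = 0.000219). Of the 8 hepatocyte markers 6 were also called lower in the pretreated groups than in FAC, with Cps1 called higher and Hnf4a not called, and their part in the lower Acmsd level was not tested. Of the exon bases of Acmsd, 3.32% overlap 2900009J06Rik on the other strand, where reads cannot be told apart without strand.

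Aldh8a1, the aldehyde dehydrogenase that oxidises the product of Acmsd (ENSMUSG00000037542, chr10:21377291-21396585, plus strand), had 65.8, 61.03 and 62.5 CPM in control and 11.03, 10.5 and 10.8 in FAC. It was 5.86-fold lower in FAC (log2 fold change -2.55, SE 0.106, edgeR adjusted p = 2.43e-11), and stood at rank 22 from the lowest fold change of the 13535 genes. Lip-1+FAC libraries held 23.6, 25.2 and 26.7 CPM and MT+FAC libraries 35.3, 26.7 and 26.2. The 4 groups formed 3 levels without overlap, with FAC lowest, both pretreated groups between, and control highest. Against FAC alone Aldh8a1 was 2.34-fold higher with Lip-1 (edgeR adjusted p = 1.01e-07) and 2.73-fold higher with Mito-TEMPO (edgeR adjusted p = 2.58e-08). Of the control mean, 39.9% ± 2.47 was present with Lip-1 and 46.6% ± 8.06 with Mito-TEMPO (SD, n = 3).

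The counts of Aldh8a1 and Acmsd, which follow each other in the same arm, stood at a ratio of 0.958 ± 0.0383 in control. In FAC libraries the ratio was 0.178 ± 0.0132, from 0.163 to 0.188, below every other library. It was 0.673 ± 0.0813 with Lip-1 and 0.734 ± 0.214 with Mito-TEMPO before FAC, where replicate 1 alone reached 0.981, the level of the highest control library.

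Qprt, the quinolinate phosphoribosyltransferase at the entry to NAD synthesis (ENSMUSG00000030674, chr7:127107114-127122226, minus strand), had 141.2, 148.6 and 146.6 CPM in control and 93.5, 104 and 89.5 in FAC. The log2 fold change was -0.61 (SE 0.0596; adjusted p = 5.04e-07, edgeR). Lip-1+FAC libraries held 134, 139 and 134 CPM and MT+FAC libraries 134, 134 and 140.4. Both pretreated groups lay above all FAC libraries and just below all control libraries. Qprt was higher than in FAC alone by 0.50 with Lip-1 (SE 0.0596; adjusted p = 3.05e-06, edgeR) and by 0.51 with Mito-TEMPO (SE 0.0595; adjusted p = 3.45e-06, edgeR) on the log2 scale. A short stretch of the Qprt transcript is at least 95% identical to parts of many other transcripts, and reads confined to it may not have been counted.

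The ratio of Acmsd to Qprt counts sets the first enzyme of the oxidative arm beside the first of the NAD arm. It was 0.454 ± 0.0307 in control, 0.639 ± 0.0923 with FAC alone, 0.278 ± 0.0359 in the Lip-1+FAC libraries and 0.300 ± 0.0291 in those of MT+FAC. The FAC libraries (0.554 to 0.737) lay above all control libraries (0.419 to 0.476), and both pretreated groups (0.242 to 0.313 and 0.269 to 0.326) lay below them. These are ratios of RNA counts and not of enzyme activities.

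**Figure D3:**
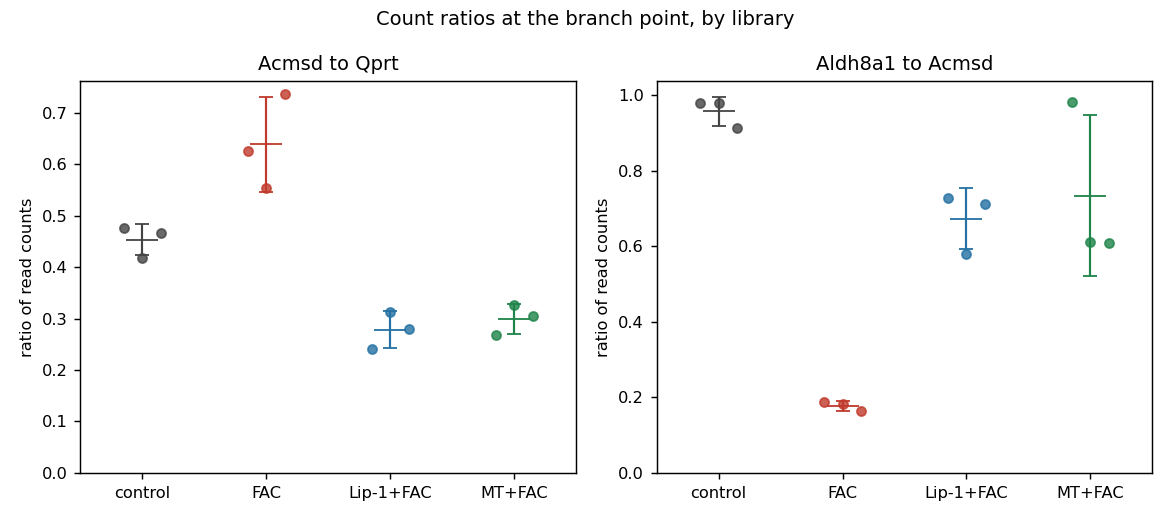
Ratios of counts of Acmsd to Qprt (left) and of Aldh8a1 to Acmsd (right) in each of the 12 libraries, on linear axes from 0; points are libraries, and lines with bars are group means with their SD. The Aldh8a1 to Acmsd ratio is 0.163 to 0.188 in FAC libraries, and the Acmsd to Qprt ratio is 0.554 to 0.737 in FAC and at most 0.326 in pretreated libraries.

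Nadsyn1, the glutamine-dependent NAD synthetase that makes the final product (ENSMUSG00000031090, chr7:143795584-143822849, minus strand), was at 24.8, 28.96 and 26.4 CPM in control and 18.1, 17.4 and 15.2 in FAC. Its log2 fold change was -0.66 (SE 0.11; adjusted p = 0.000146, edgeR). With Lip-1 it was 20.05, 20.3 and 24.7 CPM and with Mito-TEMPO 23.1, 27.9 and 23.2. Both groups lay above all FAC libraries, the Lip-1+FAC libraries lay below all control libraries, and the MT+FAC libraries overlapped with control. Against FAC alone the log2 fold change was 0.36 with Lip-1 (edgeR adjusted p = 0.016) and 0.55 with Mito-TEMPO (edgeR adjusted p = 0.000708). The Lip-1 value was 0.29 without FAC replicate 3 (edgeR adjusted p = 0.0656) and 0.26 without Lip-1+FAC replicate 3 (edgeR adjusted p = 0.0958).

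Between the scavengers, 0 of the 10 genes was called by edgeR or by DESeq2, where edgeR called 1.34% of all genes tested, 0.465% higher and 0.879% lower. Higher genes made up 34.6% of these calls, or 46.7% with upper-quartile scaling. At an unadjusted p under 0.05 edgeR had 2, Tdo2 and Aldh8a1. Tdo2 was lower with Mito-TEMPO than with Lip-1 by a log2 fold change of -0.26 (95% interval -0.48 to -0.053, edgeR adjusted p = 0.239, or 0.041 and then called without a filter on low counts), and Aldh8a1 was 0.23 (0.015 to 0.44, edgeR adjusted p = 0.328). The narrowest interval was that of Qprt, -0.12 to 0.13, and the widest was that of Afmid, -0.64 to 0.51. For Kynu the interval was -0.24 to 0.27, for Acmsd -0.10 to 0.32 and for Nadsyn1 -0.039 to 0.42. The libraries overlapped for all 10 genes, where 19.8% of all genes tested had no overlap.

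Against untreated cells, 5 of the 10 genes were called in Lip-1+FAC, 2 higher and 3 lower, and 3 in MT+FAC, 1 higher and 2 lower. Of all genes tested, 30.2% were called in Lip-1+FAC against control (15.4% higher, 14.8% lower) and 19.8% in MT+FAC against control (9.71% higher, 10.1% lower). Libraries did not overlap for 6 and 4 of the 10 genes, beside 43.3% and 38.2% of all genes tested. Acmsd and Aldh8a1, the oxidative arm, were lower in both, with log2 fold changes of -0.80 (SE 0.1; adjusted p = 1.14e-05, edgeR) and -1.33 (SE 0.1; adjusted p = 3.41e-08, edgeR) for Lip-1+FAC. In MT+FAC they were -0.69 (SE 0.0994; adjusted p = 0.000136, edgeR) and -1.10 (SE 0.0988; adjusted p = 7.41e-07, edgeR). Kynu was higher by 0.41 in Lip-1+FAC (edgeR adjusted p = 0.0156) and 0.43 in MT+FAC (edgeR adjusted p = 0.0187). Without control replicate 1, its lowest control library, these became 0.27 (edgeR adjusted p = 0.0713) and 0.29 (edgeR adjusted p = 0.0836). The MT+FAC value was also not called without MT+FAC replicate 1 (0.41, edgeR adjusted p = 0.0621) or replicate 3 (0.40, edgeR adjusted p = 0.068).

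Tdo2 was higher by 0.50 in Lip-1+FAC than in control (SE 0.1; adjusted p = 0.00119, edgeR). In MT+FAC its value of 0.24 was not called (edgeR adjusted p = 0.105), but it was without a filter on low counts (0.26, edgeR adjusted p = 0.0077), without control replicate 2 (0.32, edgeR adjusted p = 0.0436) and without MT+FAC replicate 2 (0.35, edgeR adjusted p = 0.0194). Nadsyn1 was lower by a log2 fold change of -0.30 in Lip-1+FAC (edgeR adjusted p = 0.0454), a call close to the threshold. It was kept in only 5 of 13 alternatives. The settings that lost it included RLE scaling (-0.29, edgeR adjusted p = 0.0545) and a replicate block. It was also lost without any single control library, and without Lip-1+FAC replicate 1 or 2, with values from -0.35 to -0.24. For Qprt the libraries of both pretreated groups lay below all control libraries, although the values of -0.10 and -0.10 were not called. All 8 hepatocyte markers were called lower in Lip-1+FAC than in control, as were 6 of 8 in MT+FAC, and their part in the lower Acmsd and Aldh8a1 was not tested.

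Levels of different genes were compared per kilobase of merged exons. In control cells Qprt was highest at 54.99 ± 1.45 CPM per kb, followed by Acmsd at 23.3 ± 1.16, Tdo2 at 18.5 ± 2.17, Aldh8a1 at 14.4 ± 0.554 and Nadsyn1 at 8.08 ± 0.638 (SD, n = 3 each). Kmo at 6.24 ± 0.785 and Kynu at 5.58 ± 1.09 CPM per kb overlapped, as did Ido2 at 0.923 ± 0.0474 and Afmid at 0.739 ± 0.257, with Haao at 1.70 ± 0.324 between these pairs. In FAC cells Aldh8a1 stood at rank 6 with 2.46 ± 0.057 CPM per kb, below Nadsyn1 and Kmo. In both pretreated groups Tdo2 was above Acmsd, at 26.3 ± 2.17 against 13.3 ± 1.93 CPM per kb with Lip-1 and 21.9 ± 3.15 against 14.4 ± 1.51 with Mito-TEMPO, and the libraries of these neighbours did not overlap. Kynu, Nadsyn1, Kmo and Aldh8a1 followed within 5.73 to 7.45 CPM per kb with Lip-1 and 5.90 to 7.53 with Mito-TEMPO.

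Genes that feed into, leave or run beside the route were read from lists written for this purpose. Their counts stand beside the shares of all tested genes called, which were 36.6% in FAC against control (17.5% higher, 19.1% lower), 39.9% in Lip-1+FAC against FAC and 40.9% in MT+FAC against FAC. Kynurenine aminotransferases divert kynurenine to kynurenic acid, and 3 of their 4 genes were called lower with FAC and none higher. Kyat1 had a log2 fold change of -0.89 and Aadat, which also acts on 2-aminoadipate, of -0.55. Against FAC alone 3 were higher and 1, Got2, was lower with each scavenger, Aadat being at 0.79 with Lip-1 and 0.58 with Mito-TEMPO and Got2 at -0.19 and -0.25. Kyat3 was 0.84 with Lip-1, and it was the single gene of this list called between the scavengers, lower with Mito-TEMPO than with Lip-1 (-0.36, edgeR adjusted p = 0.0324).

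The enzymes that carry the carbon of the oxidative arm from 2-oxoadipate to acetyl-CoA are shared with lysine breakdown. Of 7, 4 were lower with FAC and none higher, with a median of -0.42, Acat1 (the mitochondrial thiolase) at -0.78 and Hadh at -0.69. Against FAC, 5 were higher and none lower with either scavenger, with medians of 0.71 and 0.62. Acat1 was at 1.21 with Lip-1 and 1.10 with Mito-TEMPO, Dhtkd1 at 0.90 with Lip-1 and Gcdh, the glutaryl-CoA dehydrogenase, at 0.80 with Mito-TEMPO. Acmsd thus had the opposite sign to the 5 downstream genes called in both scavenger comparisons.

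NAD is also made from nicotinamide, nicotinate and nicotinamide riboside. Of 12 listed genes of salvage, phosphorylation and transport, 9 were tested, and 6 were lower and 1 higher with FAC (77.8% called, beside 36.6% of all genes), with a median of -0.33. Nmrk1 (nicotinamide riboside kinase) was at -1.08 and Naprt (nicotinate phosphoribosyltransferase) at -1.02, while Nampt, which recycles nicotinamide, was at 0.25. Against FAC, 6 were higher and 1 lower with Lip-1 (median 0.37), and 5 higher and 2 lower with Mito-TEMPO (median 0.35), again 77.8% called, beside 39.9% and 40.9% of all genes. Naprt was at 1.08 and 1.25, Nmnat1, which makes the dinucleotide in the nucleus, at 0.61 and 0.73, and Pnp at -0.43 and -0.55, with Lip-1 and Mito-TEMPO respectively. Nampt was at -0.32 with Mito-TEMPO. Nmnat2, Nmrk2 and Slc12a8 were too low to be tested.

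Tryptophan also enters protein synthesis, indoleamines and transport. Of 12 listed genes 7 were tested, and Ido1, Tph1, Tph2, Il4i1 and Slc6a19 were too low. With FAC, Slc7a5 and Slc3a2, the subunits of a large neutral amino acid transporter, were higher by 0.95 and 0.48, and Wars, the tryptophanyl-tRNA synthetase, was at -0.27. These 3 calls are 42.9% of the list, near the 36.6% of all genes. Against FAC, 1 was higher and 3 lower with Lip-1 (57.1% called, beside 39.9% of all genes), and 1 higher and 4 lower with Mito-TEMPO (71.4%, beside 40.9%). Inmt, an indolethylamine N-methyltransferase, was at -1.78 and -1.63, Ddc, the aromatic amino acid decarboxylase, at 0.22 and 0.21, with Lip-1 and Mito-TEMPO respectively. The transporter gene Slc7a5 was at -0.96 with Lip-1 and Slc16a10 at -0.46 with Mito-TEMPO.

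**Figure D4:**
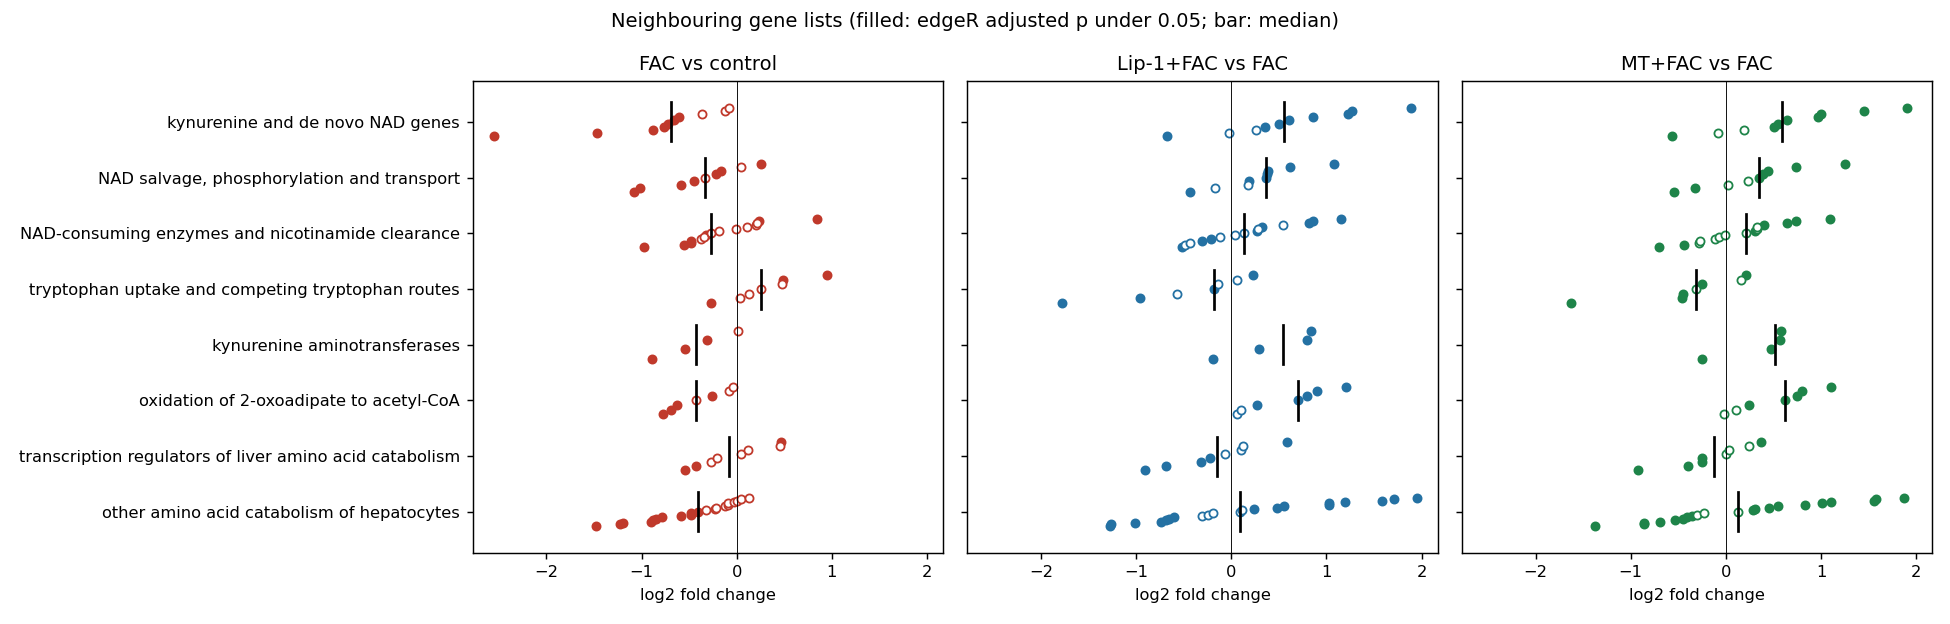
Log2 fold changes of every tested gene of the 10-gene route and of each neighbouring list, in FAC against control, Lip-1+FAC against FAC and MT+FAC against FAC; filled points were called by edgeR, open points were not, and vertical bars are list medians. The route's median is -0.69 with FAC and 0.55 and 0.60 in the scavenger comparisons, beside -0.42, 0.71 and 0.62 for the enzymes from 2-oxoadipate to acetyl-CoA.

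The breakdown of other amino acids gave rises and falls side by side in the scavenger comparisons. Of 21 listed genes, 11 were lower with FAC and none higher (52.4% called, beside 36.6% of all genes called and 19.1% lower), with a median of -0.41, Hgd of tyrosine breakdown at -1.48 and Csad of taurine synthesis at -1.23. Against FAC, 9 were higher and 7 lower with Lip-1 (median 0.087; 76.2% called, beside 39.9%), and 10 higher and 8 lower with Mito-TEMPO (median 0.13; 85.7%, beside 40.9%). Csad was at 1.95 and 1.88 and Bhmt, which remethylates homocysteine, at 1.71 and 1.57, while Sds, the serine dehydratase, was at -1.27 and -1.37, with Lip-1 and Mito-TEMPO respectively.

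Similar patterns were sought by the root mean square distance between the centred log2(CPM + 1) values of 2 genes over the 12 libraries. Nearest to Tdo2 were Slc46a3 at 0.0781, Aldh3a2, a fatty aldehyde dehydrogenase, at 0.0913 and Dhcr7, the final reductase of cholesterol synthesis, at 0.0972. Group means of Aldh3a2 were 167 CPM in control, 96.6 with FAC alone, 228 in the Lip-1+FAC libraries and 209 in those of MT+FAC. Aldh8a1 had no neighbour as close, but this distance is not scaled to the size of a gene's changes, which were larger for Aldh8a1. It therefore does not show which of the 2 patterns is rarer. Neu3, a ganglioside sialidase, came nearest at 0.229, then Tgtp1 at 0.279 and Acnat2 at 0.315. Neu3 averaged 18.3 CPM in control, 2.13 with FAC alone, 4.75 in the Lip-1+FAC libraries and 7.04 in those of MT+FAC.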

How the data were processed

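RNA was measured in 12 libraries, 4 groups of 3, made with SMART-Seq v4 and Nextera XT from total RNA, per the labels' protocols. The deposited tables give each gene's raw, not normalized read count in STAR's layout, and STAR and build GRCm38 are named in the submitters' processing notes, without a version. The unstranded column was used. Lines that name no gene stayed out of library sizes and tests, and reads assigned to genes were 75.8% to 81.2% of those listed. No molecular identifiers are mentioned, so reads are not independent molecules and count-based precision covers counting error only. Reads that map to several places are assigned to no gene in this layout.

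From these counts, edgeR 4.0.16 in R 4.3.3 fitted all 12 libraries as 4 group means with a quasi-likelihood F test (filterByExpr, TMM, robust dispersions). P-values were two-sided and adjusted by Benjamini-Hochberg over 13535 genes, with 0.05 as the limit for a call. The biological coefficient of variation was 9.71%. CPM is the count scaled to library size after TMM, divided by the length of a gene's merged exons for CPM per kb. Names and coordinates come from GENCODE M21, in which 260 of 55487 identifiers had no match. Replicate pairs of a group differed by more than counting noise. On data simulated for FAC against control with 13274 genes and 200 changed by a log2 fold change of 1, 86.5% were recovered and 4.42% of calls were false. Far fewer genes were changed there than the 36.6% called in the data. The simulated spread followed the trend over genes and not each gene's own value, so these rates may not carry over.

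The 10 genes, the neighbouring lists and the markers were chosen with earlier results of these data known. The 10 genes are all named. From a list, up to 2 of the largest rises and 2 of the largest falls among called genes with a mean of at least 1 CPM are named in FAC against control and in each scavenger group against FAC, and Kyat3 between the scavengers was named after its value was seen. The 3 nearest protein-coding genes outside the 10 are named for Tdo2 and Aldh8a1. Alternatives were other scaling, no filter, DESeq2 1.42.0, the compared libraries alone, summed stranded columns, a replicate block and leaving out each library.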

Additional observations from a re-analysis of the deposited data

How the results depend on the processing

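The number of the 10 genes called stayed within 1.5 times the main count in 76 of 78 alternatives. The exceptions were Mito-TEMPO against Lip-1 without a filter, where 1 gene, Tdo2 (-0.26, edgeR adjusted p = 0.041), was called instead of 0, and Lip-1+FAC against control without control replicate 1. Leaving out each library gave 7 to 7 called genes in FAC against control, 7 to 8 in Lip-1+FAC against FAC, 8 to 8 in MT+FAC against FAC, 0 to 0 between the scavengers, 3 to 5 in Lip-1+FAC against control and 2 to 4 in MT+FAC against control. Over all 13 alternatives Aldh8a1 in FAC against control ran from -2.57 to -2.52.

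Same-numbered replicates did not deviate together in every pair, with 6 of 18 pairs correlating above 0.1 and 15 of 36 libraries correlating best with their own number. By comparison this ran from 0 of 6 libraries in Lip-1+FAC against control to 6 of 6 in MT+FAC against FAC, where 2 of 3 pairs were above 0.1 (0.043 to 0.122), and it was 4 of 6 in FAC against control (up to 0.229, 2 of 3 pairs). No comparison had all 3 pairs above 0.1. With a replicate block, 7, 8, 8, 0, 4 and 3 of the 10 genes were called in the 6 comparisons, and the Nadsyn1 call in Lip-1+FAC against control was lost (-0.30, edgeR adjusted p = 0.0564).

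Of single values, 29 changed sign, all of them not called. Leaving out each library, Haao ran from -0.17 to 0.087 in FAC against control, -0.15 to 0.068 in Lip-1+FAC against FAC, -0.20 to 0.019 in MT+FAC against FAC, -0.19 to 0.069 in Lip-1+FAC against control and -0.25 to 0.011 in MT+FAC against control. Against control, Afmid ran from -0.36 to 0.10 with Lip-1 and -0.43 to 0.033 with Mito-TEMPO, Ido2 from -0.20 to 0.22 and -0.020 to 0.27, and Kmo with Mito-TEMPO from -0.16 to 0.019. Between the scavengers, Afmid ran from -0.18 to 0.084, Haao from -0.11 to 0.042, Ido2 from -0.12 to 0.29, Kmo from -0.010 to 0.11, Kynu from -0.019 to 0.045 and Qprt from -0.020 to 0.022, and with stranded columns summed Kynu was -0.0041 and Qprt -0.014. The cause was not tested. Over all genes, 182 were called between the scavengers, against 477 without a filter, 422 with DESeq2 and 312 with the compared libraries alone, and against 76 and 77 without Lip-1+FAC replicates 1 and 2, and 86 and 74 without MT+FAC replicates 2 and 3. Depth limits Ido2 and Afmid most.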

Other observations

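Other gene groups around NAD and the control of hepatic amino acid breakdown were read in the same fit. Of 16 listed NAD-consuming and nicotinamide-clearing genes 15 were tested, and 2 were called higher and 5 lower with FAC, with a median log2 fold change of -0.27. This is 46.7% of the list, near the 36.6% called among all genes tested. The higher genes were the deacylases Sirt1 (0.84) and Sirt2 (0.23), while Sarm1, an NAD hydrolase, was at -0.97 and the mitochondrial Sirt4 at -0.55. Against FAC, 5 were higher and 3 lower with Lip-1 (53.3%, beside 39.9% of all genes), and 5 higher and 2 lower with Mito-TEMPO (46.7%, beside 40.9%). Sirt1 was at -0.52 with Lip-1 and -0.70 with Mito-TEMPO, and Sirt2 at -0.31 and -0.44. Aox3, an aldehyde oxidase, was at 1.15 and 1.09 in these comparisons, which share the FAC libraries.

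Among 8 transcription regulators of liver amino acid breakdown, 1 was higher and 2 were lower with FAC, 37.5% of the list, about the 36.6% of all genes. Ahr, the receptor that kynurenine metabolites can activate, was at 0.47 and the coactivator gene Ppargc1a at -0.55. With either scavenger 1 was higher and 4 were lower than in FAC alone (62.5%, beside 39.9% and 40.9% of all genes). Ppargc1a was at 0.59 with Lip-1 and 0.37 with Mito-TEMPO, Cebpb at -0.91 and -0.92, and Ppara at -0.69 and -0.40.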
